A study of Arabidopsis thaliana with 12 samples.

Results

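Polysomal RNA from reilluminated seedlings was set against polysomal RNA from seedlings kept in darkness. The comparison rests on the 2 arrays labelled as immunoprecipitated RNA after 10 min of reillumination and the 2 labelled as immunoprecipitated RNA after 1 h of dark, which are 4 of the 12 arrays in the series. All 22746 probe sets other than controls were kept. Every array came from whole 14-day-old Arabidopsis thaliana seedlings, ecotype Col-0, of the line 35S:HF-RPL18B, so the dark and the reilluminated seedlings carried the same transgene. In this line the near-constitutive 35S promoter drives a ribosomal protein of the large subunit with a His6-FLAG tag, and the seedlings still make their untagged copy. Seedlings grew on medium with sucrose under 16 h of light and 8 h of dark. Darkness lasted 1 h and began halfway through the day, and reilluminated seedlings were returned to light for 10 min after the same 1 h. The other arrays hold polysomal RNA of seedlings given 1 h of light as a control, and total RNA of all 3 conditions taken from the extracts that were used for the capture. Each group has 2 arrays, from independent biological replicate experiments per the labels.

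Ribosomes bearing the tag can be pulled from an extract on anti-FLAG beads. The mRNAs that come with them are taken to be those that were bound by ribosomes when the tissue was frozen. An mRNA can become more abundant in this pool because more of it is made or because a larger share of existing copies joins ribosomes, which is why total RNA is measured beside it. In plants, translation in the cytosol falls when light is removed and resumes quickly when it returns, and mRNAs for the photosynthetic apparatus and for ribosomes are known to respond. The tag sits on ribosomes of the cytosol, and the chloroplast has its own ribosomes, which do not carry it.

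The values are log2 expression values, and a difference of 1 is a 2-fold change. Every value is relative to the rest of its array, so a gain or loss of all mRNAs on ribosomes together would not show. Replicate arrays of a group correlated at 0.9925 to 0.9948 over the probe sets, and the 4 arrays compared here at 0.9861 to 0.9938 among themselves. The array medians lay between 6.04 and 6.19. The leaf markers RCA, the Rubisco activase, and PRK, the phosphoribulokinase of the Calvin cycle, read 11.27 to 13.48 on the 6 polysomal arrays. Of the 2 root markers measured, the root-hair expansin EXPA7 read 4.45 to 4.69 and AT5G17820 read 6.27 to 7.03 on the same arrays. In such bulk samples fewer cells of a type and less RNA per cell cannot be told apart. No seed storage or pollen marker of the list had a probe set tied to it alone.

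After 10 min of light many mRNAs on ribosomes had moved by a small amount. In limma's fit over all 12 arrays, with the Benjamini-Hochberg adjustment made over all 22746 probe sets and 0.05 as threshold, 1051 probe sets were higher after reillumination (4.62% of those tested) and 729 were lower (3.2%), 7.83% in all. The median rise among the called was 0.65, or 1.57-fold, and the median fall was 1.47-fold, a log2 difference of -0.55. Among the called, 94 probe sets rose by at least 2-fold and 22 fell by as much, and 3-fold was passed by 1 that rose and 2 that fell. The share of calls that were higher was 59.0%, and 72.7% where each array was centred on its own median. That step moved the median of all differences from -0.0027 to 0.045.

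The replicate numbers of the labels pair the arrays, and with that pairing in the model 1750 probe sets were higher and 1680 lower (7.69% and 7.39%). All 1780 calls made without the pairing were among them. Each of the 1780 also moved the same way in both pairs of replicates, as did 67.4% of all probe sets, and had dark and reilluminated arrays that did not overlap, as did 48.9% of all probe sets. With 2 arrays a group the calls lean on each array. Of the 1780, 692 were also made without dark replicate 1, 816 without reilluminated replicate 1, 440 without dark replicate 2 and 417 without reilluminated replicate 2. In all 4 of these fits 290 were called, of which 242 were higher and 48 lower. Below, a call is said to hold with each array left out where it was made in all 4.

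**Figure D1:**
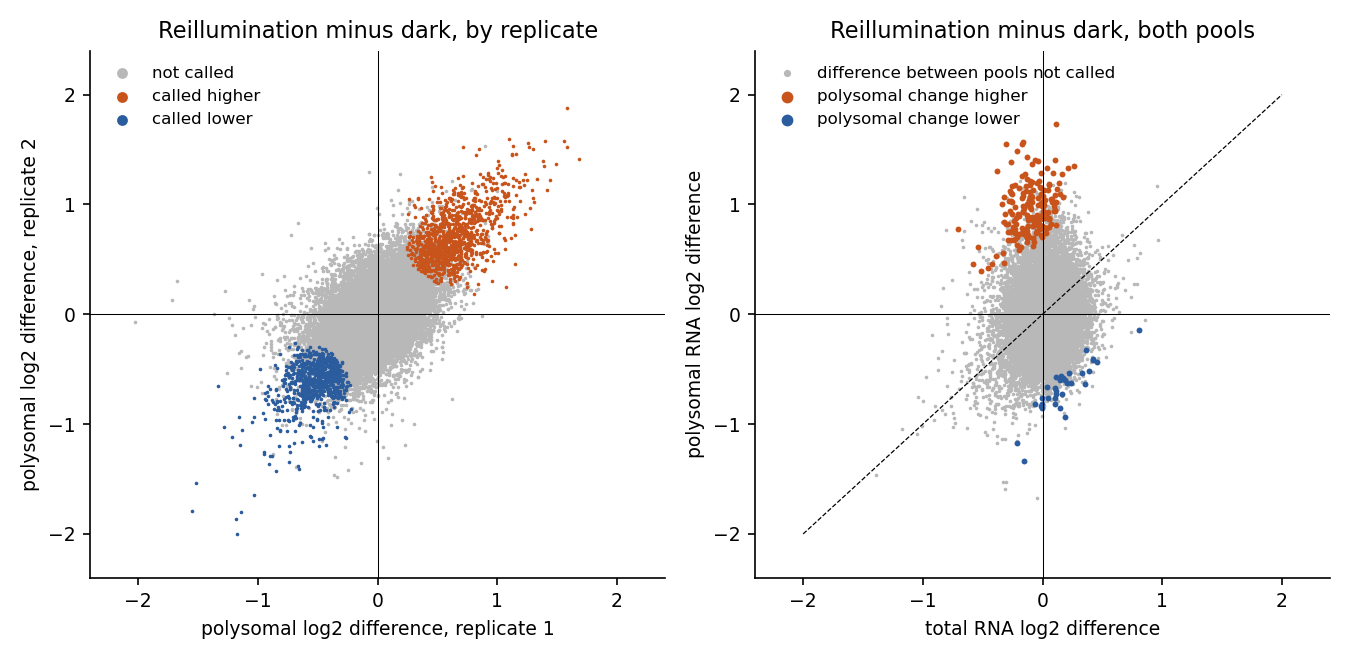
Log2 differences between reillumination and 1 h of dark for 22746 probe sets, 1 point each. Left, the polysomal difference in replicate 1 (x axis) against replicate 2 (y axis), with the 1051 probe sets called higher in orange and the 729 called lower in blue, all of which lie in the quadrants where both replicates moved the same way; right, the difference in total RNA (x axis) against that in polysomal RNA (y axis), with the 193 and 33 probe sets whose change differed between the pools in orange and blue and the line of equal change dashed.

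Of 13355 genes with a probe set of their own, 648 rose and 321 fell (4.85% and 2.4%), and 1072 rose and 766 fell with the pairing in the model (8.03% and 5.74%). The gene with the largest rise was AT5G64180, known here by its locus, since neither the files nor the gene table names it. Its polysomal level was 6.83 and 7.04 on the dark arrays and 8.41 and 8.92 on the reilluminated ones. Both reilluminated arrays were above both dark arrays, and the rise was 3.32-fold (log2 1.73 ± 0.18, SE, n = 2, limma adjusted p = 0.000718). The light controls read 8.29 and 8.71 and overlapped the reilluminated arrays. AT5G52960 read 7.39 and 7.59 in the dark and 8.94 and 9.17 after reillumination, a rise of 2.96-fold (limma adjusted p = 0.00209). AT3G62190 read 6.17 and 6.34 in the dark and 7.75 and 7.87 after reillumination, a rise of 2.93-fold (limma adjusted p = 0.000575). AT3G14595 read 9.37 and 9.27 in the dark against 10.76 and 10.85 after reillumination, a rise of 2.8-fold (limma adjusted p = 0.000612). In the last 3 genes the 2 reilluminated arrays lay close together and far above the dark ones. All 4 calls held with each array left out.

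The 15 nuclear genes with the largest rises spanned log2 differences of 1.20 to 1.73, and the rule of choice fixes that all of them rose. After AT3G14595 came AT2G39000, AT2G20725, AT1G70900, AT5G05710, AT5G16110, AT5G05750, AT5G50335, AT1G15350, AT1G28150, AT3G05810 and COR27, of which COR27 alone has a gene symbol in the files. For 14 of the 15 the call held with each array left out. The exception was COR27, a cold- and light-regulated inhibitor of clock genes, which lost the call without reilluminated replicate 2. Total RNA of the 15 differed by -0.30 to 0.26 between the same conditions, with a median of -0.06. The difference between the pools was called for 14 of the 15 (0.849% of all probe sets were called higher in it) and not for COR27 (limma adjusted p = 0.145, and 0.0162 with the pairing in the model). The 15 were chosen by their polysomal difference, which is one side of that difference and favours such calls, so the count is only a description. The light controls were on average between 5.69 and 10.37 for these genes, and the mean after reillumination was above the mean in light in 14 of the 15.

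COR27 stood apart in its order of levels. It read 5.57 and 5.80 in light, 6.88 and 6.96 in the dark, and 8.11 and 8.13 after reillumination. The 3 conditions did not overlap, with darkness above light and reillumination above darkness. The rise from dark to reillumination was 2.3-fold (log2 1.20 ± 0.21, SE, n = 2, limma adjusted p = 0.00709). AT4G33980, in the list of light-response genes, followed the same order, at 6.91 and 6.74 in light, 8.82 and 8.44 in the dark, and 9.50 and 9.31 after reillumination. Its rise of 1.71-fold (limma adjusted p = 0.0181) was called without dark replicate 1 (0.0277), but not without reilluminated replicate 1 (0.0982), dark replicate 2 (0.15) or reilluminated replicate 2 (0.0645). Most of the strong rises had the other order. The fitted difference between dark and light was called lower for 13 of the 15 (8.68% of all probe sets were), higher for COR27 (8.49%), and was not called for AT5G16110. The difference between reillumination and light was called higher for 3 (4.78% of all probe sets were), COR27, AT5G16110 and AT5G05750, and not called for 12. With the pairing in the model it was called higher for 4 more (7.69% of all probe sets were), AT3G62190, AT3G14595, AT2G39000 and AT5G05710 (adjusted p = 0.0204, 0.0276, 0.00693 and 0.0202). These comparisons share the dark or the reilluminated arrays with the one described here, so their values stand side by side and are not a separate test.

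AT5G16110 read 8.79 and 8.65 in light and 8.49 and 8.46 in the dark, and then 9.93 and 9.68 after reillumination. Only the reilluminated arrays stood high, 2.52-fold above the dark ones (limma adjusted p = 0.000575) and log2 1.09 above light. At the other end, AT1G28150 read 9.80 and 9.89 in light, 8.35 and 8.53 in the dark and 9.60 and 9.75 after reillumination. Its reilluminated arrays were 2.35-fold above the dark ones (limma adjusted p = 0.000612), and both were below both light arrays.

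**Figure D2:**
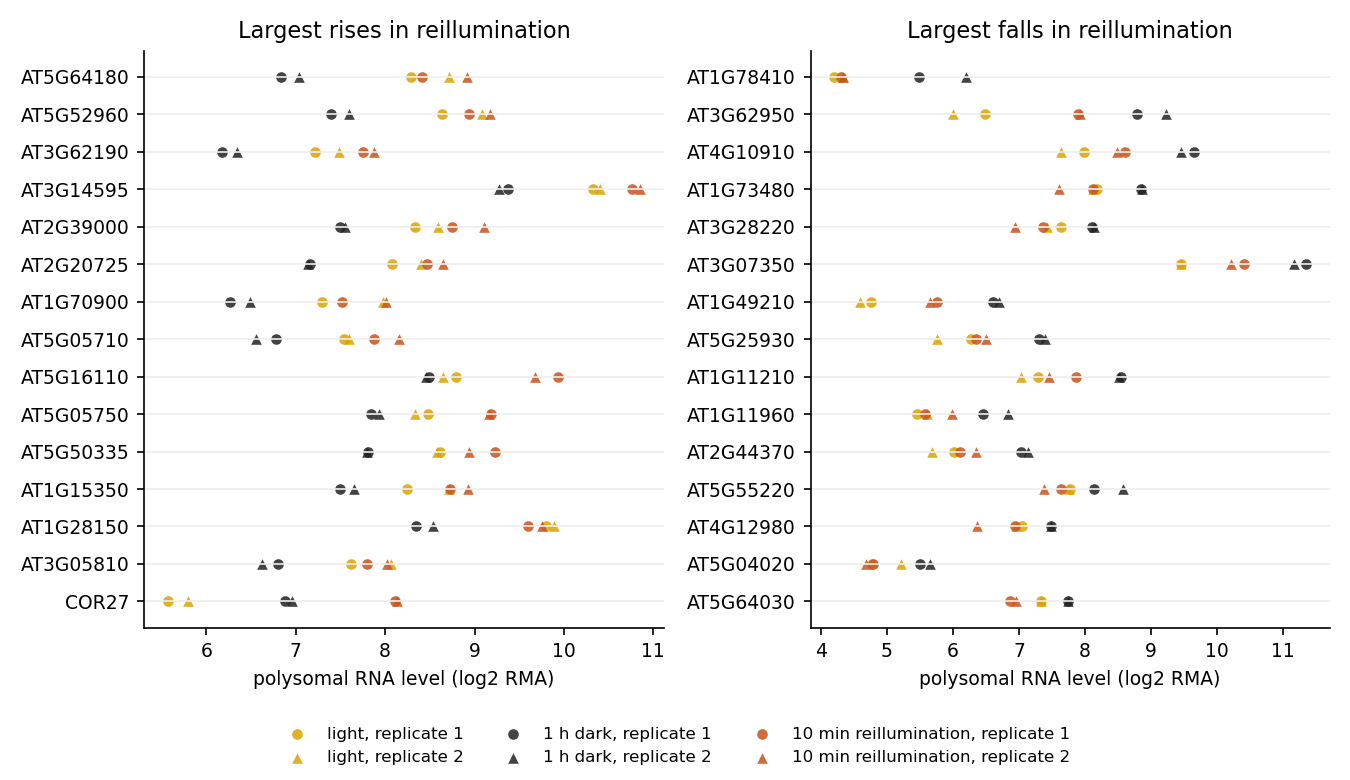
Polysomal RNA level (log2, x axis) of the 15 nuclear genes with the largest called rises (left) and the 15 with the largest called falls (right) on each of the 6 polysomal arrays, 1 point per array. Colours give the condition and shapes the replicate number; COR27 is lowest in light and highest after reillumination, while most of the other genes that rose had their lowest level in the dark.

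The largest fitted fall of a nuclear gene was that of AT1G78410. It read 5.48 and 6.20 in the dark and 4.30 and 4.34 after reillumination, with the light controls at 4.20 and 4.33. Only the dark arrays were well above the lower quartile of the arrays, which was at most 4.17, and the fitted difference was log2 -1.52 ± 0.23 (SE, n = 2, limma adjusted p = 0.00321). At such low levels the size of the fall, and with it its rank, is uncertain. AT3G62950 read 8.79 and 9.22 in the dark and 7.89 and 7.93 after reillumination, a fall of 2.13-fold (limma adjusted p = 0.00841), while light stood lower still at 6.48 and 6.00. That call was lost without dark replicate 2 (0.0796) and without reilluminated replicate 2 (0.0553). AT4G10910 read 9.65 and 9.46 in the dark, 8.60 and 8.48 after reillumination and 7.99 and 7.63 in light. Its fall of 2.02-fold (limma adjusted p = 0.00182) held with each array left out.

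The 15 nuclear genes with the largest falls spanned log2 differences of -1.52 to -0.83. The others were AT1G73480, AT3G28220, AT3G07350, AT1G49210, AT5G25930, AT1G11210, AT1G11960, AT2G44370, AT5G55220, AT4G12980, AT5G04020 and AT5G64030, none of which has a symbol in the files. In 6 of the 15 the call held with each array left out: AT1G78410, AT4G10910, AT3G07350, AT1G49210, AT1G11210 and AT5G64030. AT5G25930 lost it without dark replicate 2 (limma adjusted p = 0.0502) and AT2G44370 in each of the 4 fits (0.106 to 0.185). The other 6, beside AT3G62950, lost it without dark replicate 2, with adjusted p-values of 0.0565 for AT5G04020 to 0.118 for AT4G12980. Of those 6, AT1G73480, AT3G28220 and AT4G12980 also lost it without dark replicate 1 (0.0629, 0.0844 and 0.102). AT1G11960 also lost it without reilluminated replicate 1 (0.0823). All of the 6 but AT1G11960 lost it without reilluminated replicate 2, with values of 0.0541 for AT5G04020 to 0.195 for AT4G12980.

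Total RNA differed most in 4 of the 15. For AT3G62950 the total RNA difference was -1.05 beside -1.09 in polysomal RNA, for AT4G10910 it was -1.01 beside -1.02, for AT3G28220 it was -0.91 beside -0.97 and for AT3G07350 it was -0.74 beside -0.95. With the pairing in the model the total RNA difference was called for AT4G10910 and AT3G07350 (adjusted p = 0.00863 and 0.0362) and not for AT3G62950 and AT3G28220 (0.0506 and 0.172). In AT5G64030 total RNA differed by -0.01. It read 7.74 and 7.74 on the dark polysomal arrays and 6.86 and 6.95 after reillumination, below both light arrays at 7.34 and 7.34. This fall of 1.78-fold (limma adjusted p = 0.00194) is the only one of the 15 whose difference from the change in total RNA was called, as 0.145% of all probe sets were in that direction. With the pairing in the model that difference was called for 6 more: AT1G78410 (adjusted p = 0.0081), AT1G73480 (0.0403), AT5G25930 (0.0167), AT1G11960 (0.0189), AT5G55220 (0.0463) and AT5G04020 (0.0157).

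Total RNA moved little over the 10 min. No probe set was called in total RNA by limma, while 980 had an unadjusted p under 0.05. The smallest adjusted p was 0.178, and with the pairing in the model 12 were called (0.0528%). The middle 90% of the differences lay between -0.25 and 0.26 in total RNA and between -0.45 and 0.49 in polysomal RNA. A difference of at least 1.5-fold was seen in 0.422% of probe sets in total RNA and in 5.21% in polysomal RNA. Among the 1051 probe sets higher in polysomal RNA the median difference in total RNA was 0.01, and 546 of them were above 0 there. Among the 729 lower in polysomal RNA it was -0.04, and 436 were below 0. Over all probe sets the median was 0.018.

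The difference between the pools was tested directly as an interaction. It was called for 193 probe sets in which polysomal RNA rose relative to total RNA (0.849% of those tested) and for 33 in which it fell (0.145%), and with the pairing in the model for 716 and 370 (3.15% and 1.63%). Of the 193, 191 were also called higher in polysomal RNA itself, and 29 of the 33 were called lower there. The fitted differences ran from 0.70 to 1.85 and from -1.19 to -0.69. These counts moved with single arrays. Without dark total replicate 1 they were 274 and 83, and without any 1 of the other 7 arrays they were 2 to 25 and 0 to 1. Among the named genes called in the interaction, the most negative values belonged to psbB (-1.19), AT1G30600 (-0.99), ycf4 (-0.96), AT1G72500 (-0.92) and TRM15 (-0.87). AT1G72500 read 7.02 and 7.03 in the dark, 6.18 and 6.23 after reillumination and 6.93 and 7.08 in light. Its reilluminated arrays alone were low, 1.76-fold under the dark ones (limma adjusted p = 0.00188), and its total RNA differed by 0.10.

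Of the nuclear genes of the translation machinery some rose and none fell by the test. Their counts stand beside 4.85% of all genes called higher, and 8.03% with the pairing in the model. Ribosomal proteins and factors are listed by their known loci, since the annotation holds no descriptions. Here and below, a listed gene counts as measured where a probe set is tied to it alone. These were 47 of 92 loci for the small subunit and 84 of 132 for the large one. Of 47 probe sets for small-subunit proteins of the cytosolic ribosome 6 rose, with a median difference of 0.15. Of 84 for the large subunit 12 rose, and 23 with the pairing in the model, with a median of 0.23. The median of all genes was 0.01. The size of the shift differed between the replicates: the medians were 0.06 and 0.22 for the small subunit and 0.13 and 0.37 for the large one in replicates 1 and 2. In total RNA the medians of both lists were 0.01. Their mRNAs were abundant, with medians over the members between 10.16 and 10.78 on the 6 polysomal arrays. Of the probe sets in the brightest of 5 equal bins by light level (8.26 to 14.2), 11.4% were called higher. The shares of both lists, 12.8% and 14.3%, lie near that value, and the part of level in these counts was not tested.

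Among the called members the largest rise was that of AT1G74270 of the large subunit, while AT3G55170 of the same list had a larger fitted difference of 0.96 and was not called (limma adjusted p = 0.0849). AT1G74270 read 9.27 and 9.31 in the dark, 9.89 and 10.41 after reillumination and 10.39 and 10.63 in light. Reilluminated arrays were above the dark ones by 1.82-fold (limma adjusted p = 0.0151) and on average below the light ones. AT4G00810 and AT4G29410 of the large subunit rose by 1.68-fold and 1.64-fold (limma adjusted p = 0.0169 and 0.0164). For these 3 the call was made without reilluminated replicate 1 and not without any of the other 3 arrays (0.068 to 0.142). AT5G47700, also of the large subunit, read 10.21 and 10.14 in the dark and 10.76 and 10.96 after reillumination, a rise of 1.61-fold (limma adjusted p = 0.00743). Without dark replicate 2 its adjusted p was 0.0628, and without reilluminated replicate 2 it was 0.071. Of the small subunit, AT4G39200, AT3G02080, AT1G15930 and AT5G16130 rose by 1.43-fold to 1.49-fold, between them at 10.72 to 11.25 in the dark and 11.18 to 11.88 after reillumination. AT4G39200 was called in none of the fits that lack an array (0.0645 to 0.0786), and the other 3 were called only without reilluminated replicate 1 (otherwise 0.0763 to 0.217).

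Nuclear-encoded proteins of the plastid ribosome, which are made in the cytosol and imported, also rose in part. Of 30 listed 7 were measured, of which 3 rose, and the median was 0.38. AT5G65220 read 10.54 and 10.60 in the dark and 11.31 and 11.56 after reillumination, with light at 11.70 and 11.86. The arrays of the 3 conditions did not overlap, and the rise over darkness was 1.81-fold (limma adjusted p = 0.00735), lost without reilluminated replicate 2 (0.071). AT4G17560 rose by 1.62-fold (limma adjusted p = 0.011), lost without reilluminated replicate 1 (0.067) and dark replicate 2 (0.0785). AT1G29070 rose by 1.6-fold (limma adjusted p = 0.0082), lost without dark replicate 1 (0.0669) and reilluminated replicate 2 (0.0727).

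Of 35 translation factor genes listed 4 were measured, of which 2 rose. AT4G27130 read 9.57 and 9.41 in the dark and 10.17 and 10.23 after reillumination, and AT5G19510 read 10.79 and 10.69 against 11.31 and 11.40. In both the reilluminated arrays stood clear of the dark ones, by 1.64-fold (limma adjusted p = 0.00405) and 1.54-fold (limma adjusted p = 0.00517). The first call held with each array left out, and the second was lost without dark replicate 2 (0.0524) and reilluminated replicate 2 (0.0522). Of 31 ribosome biogenesis genes listed 11 were measured. Of these 1 rose, DIM1A, an adenosine dimethylase of ribosomal RNA, and the list median was 0.06. DIM1A read 6.94 and 6.97 in the dark, 7.59 and 7.88 after reillumination and 7.0 and 7.19 in light. Light and dark lay close together, and the rise of 1.71-fold (limma adjusted p = 0.00383) held with each array left out.

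**Figure D3:**
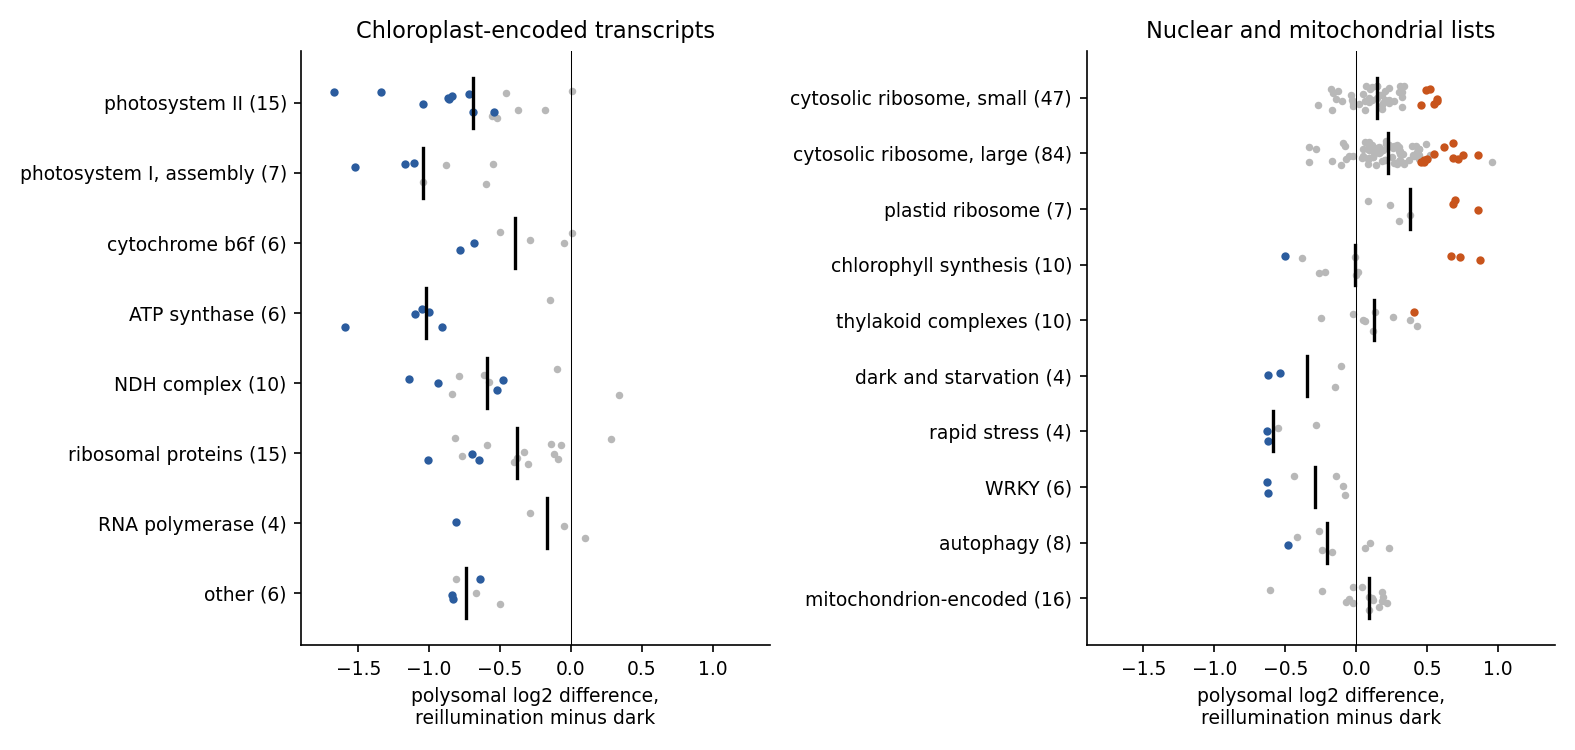
Polysomal log2 difference between reillumination and 1 h of dark (x axis) for the members of gene lists, 1 point per gene, with the number measured in parentheses. Left, chloroplast-encoded transcripts by complex; right, nuclear-encoded lists and mitochondrion-encoded transcripts. Orange and blue points were called higher and lower by limma, grey points were not called, and black bars are list medians, which reach -1.04 for photosystem I and 0.38 for the plastid ribosome.

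Chlorophyll synthesis genes moved in both directions. Of 31 genes listed 10 were measured, of which 3 rose and 1 fell, beside 4.85% and 2.4% of all genes. In the brightest of 5 equal bins by light level the shares were 11.4% and 5.25%. The list median was -0.01, or 0.04 where arrays were centred on their medians. LIL3:2, a light-harvesting-like protein that holds the geranylgeranyl reductase of chlorophyll synthesis in the thylakoid membrane, read 9.81 and 10.08 in the dark and 10.76 and 10.86 after reillumination. CHLM, the Mg-protoporphyrin methyltransferase of the same pathway, read 10.24 and 10.29 in the dark, and both its reilluminated arrays lay between its light controls. In both genes reillumination overlapped light, which read 10.93 and 10.83 for LIL3:2 and 11.09 and 10.98 for CHLM. The rises were 1.83-fold and 1.66-fold (limma adjusted p = 0.00188 and 0.0053), and AT1G74470 of the same list rose by 1.59-fold (limma adjusted p = 0.00366). All 3 calls held with each array left out. Total RNA of LIL3:2 and CHLM differed by -0.12 and -0.20, and the difference between the pools was called for both (log2 0.99 and 0.93). HEMB1, an aminolevulinate dehydratase early in the pathway, went the other way, from 10.42 and 10.61 to 10.00 and 10.04. The fall was 1.41-fold (limma adjusted p = 0.0388) and was called in none of the 4 fits that lack an array (0.0731 to 0.227).

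Of 50 nuclear-encoded genes listed for thylakoid complexes 10 were measured. Of these 1 rose, and 3 with the pairing in the model, with a median of 0.12. Of all genes 4.85% rose, and 8.03% with the pairing. The list medians were 12.7 to 13.06 on the 6 polysomal arrays. In the brightest of 5 equal bins by light level 11.4% of probe sets were called higher, so 1 of 10 is no result about the list. LHCB4.2, a minor antenna protein of photosystem II, went from 12.75 and 12.65 to 13.15 and 13.08, a rise of 1.33-fold (limma adjusted p = 0.0373). It was called in none of the 4 fits that lack an array (0.0897 to 0.204). None of the 3 Calvin cycle genes measured, of 19 listed, was called. AT2G26500, listed as a leaf marker, rose by 1.61-fold (limma adjusted p = 0.0316), which was also lost in each of those fits (0.07 to 0.186), while RCA and PRK differed by 0.16 and 0.09 and were not called.

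Chloroplast-encoded transcripts stood lower after reillumination, and they were rare in the capture. In light their polysomal level minus their total level had a median of log2 -4.16. Of 69 measured, 30 fell and none rose, and 42 fell with the pairing in the model, beside 2.4% and 5.74% of all genes. The differences had a median of -0.64 in polysomal RNA and -0.20 in total RNA. The median levels of these transcripts on the single arrays were 7.20 and 7.12 in the dark, 6.43 and 5.97 after reillumination, and 6.24 and 6.15 in light. The dark arrays stood highest and the reilluminated ones lay near light. The part that the change in total RNA, and the low level of these transcripts in the capture, had in the fall was not tested.

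The fall was spread over the complexes of photosynthesis. For photosystem II 9 of 15 fell (median -0.69), for photosystem I and its assembly 3 of 7 (median -1.04), for the cytochrome b6f complex 2 of 6 (median -0.40), and for the ATP synthase 5 of 6 (median -1.02). Of the chloroplast's NADH dehydrogenase-like complex 4 of 10 fell (median -0.59). Of the genes for its gene expression machinery, 3 of 15 ribosomal proteins fell (median -0.38) and 1 of 4 RNA polymerase subunits (median -0.17). With the pairing in the model the counts were 11 of 15 for photosystem II, 5 of 7 for photosystem I and 7 of 10 for the NADH dehydrogenase-like complex. They were 6 of 15 for ribosomal proteins and 5 of the 6 other genes, of which 3 were called without it.

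In photosystem II, psbT, a small subunit, read 5.82 and 5.88 in the dark, 4.27 and 4.09 after reillumination and 3.90 and 3.90 in light. Only in the dark was it well above the lower quartile of the arrays, so the size of the fall is uncertain, and the fitted difference was log2 -1.67 (limma adjusted p = 0.00495). The core antenna gene psbB read 7.46 and 7.62 in the dark and 6.43 and 5.97 after reillumination, a fall of 2.53-fold (limma adjusted p = 0.00137). In photosystem I, psaA of the reaction centre read 6.99 and 6.81 against 5.48 and 5.28, and ycf4, an assembly factor, 7.13 and 6.92 against 5.98 and 5.73. These 2 fell by 2.88-fold and 2.25-fold (limma adjusted p = 0.00412 and 0.000843). The 4 calls held with each array left out. The dark arrays were above the others in all 4 genes.

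In the ATP synthase, atpF read 8.08 and 7.76 in the dark and 6.90 and 5.76 after reillumination. The reilluminated arrays differed from each other by more than log2 1, and the fall of 3.01-fold (limma adjusted p = 0.00967) was lost without dark replicate 1 (0.068) and reilluminated replicate 2 (0.0543). The subunit genes atpB and atpH fell by 2-fold and 2.06-fold (limma adjusted p = 0.00188 and 0.00687), and both held with each array left out. In the NADH dehydrogenase-like complex, ndhJ fell by 2.2-fold (limma adjusted p = 0.00591), lost without dark replicate 2 (0.0589) and reilluminated replicate 2 (0.0624). Among ribosomal proteins, rpl22 fell by 2.01-fold (limma adjusted p = 0.00227) and held. In the cytochrome complex, petA fell by 1.61-fold (limma adjusted p = 0.00797), lost without dark replicate 1 (0.061) and reilluminated replicate 2 (0.0528).

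Among the chloroplast transcripts described here, the reilluminated arrays of ndhJ, psbA and matK lay below the light ones as well. The ndhJ arrays read 5.69 and 5.25 in light and 5.16 and 4.81 after reillumination. For psbA, a reaction-centre protein of photosystem II known for its rapid turnover in light, the arrays read 8.69 and 9.05 in light, 8.91 and 8.89 in the dark, and 8.06 and 8.02 after reillumination. Light and dark overlapped and the reilluminated arrays alone were low, 1.81-fold under the dark ones (limma adjusted p = 0.0158). The call was lost in each of the 4 fits that lack an array (0.0615 to 0.0971). The intron maturase gene matK read 9.69 and 9.73 in light, 10.02 and 9.98 in the dark and 9.22 and 9.10 after reillumination. It too was lowest after reillumination, 1.79-fold under darkness (limma adjusted p = 0.005), a call lost without reilluminated replicate 2 (0.0512). For rbcL, the large subunit of Rubisco, the arrays overlapped, at 6.91 and 6.41 in the dark and 6.51 and 5.81 after reillumination, and it was not called (limma adjusted p = 0.322). Of 16 mitochondrion-encoded transcripts none was called, and 1 was lower with the pairing in the model. Their median was 0.09, and -0.02 among the brighter probe sets alone. On the 6 polysomal arrays their median levels were low, at 4.17 to 4.47. Of all probe sets in the bin by light level from 3.93 to 5.15, only 0.353% were called higher and 1.08% lower. The lack of calls is thus no contrast with the chloroplast transcripts.

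Of 19 genes listed for their response to darkness and low sugar 4 were measured. Of these 2 fell, beside 2.4% of all genes (5.74% with the pairing in the model), and the list median was -0.35. With 4 measured, the count describes single genes and not the list. ATL8, a RING-finger ubiquitin ligase, read 7.58 and 7.20 in light, 9.31 and 9.22 in the dark and 8.74 and 8.55 after reillumination. PPDK, the pyruvate orthophosphate dikinase, read 8.39 and 8.26 in light, 10.44 and 10.62 in the dark and 9.97 and 10.01 after reillumination. In both genes reillumination lay between the other conditions and nearer to darkness. The falls were 1.54-fold and 1.46-fold (limma adjusted p = 0.0234 and 0.02). The call of ATL8 was made only without reilluminated replicate 1 (otherwise 0.0906 to 0.161), and that of PPDK only without dark replicate 1 (otherwise 0.086 to 0.149). None of 6 genes that break down branched-chain amino acids was called, and their median was -0.10.

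Of 30 genes listed for the rapid stress and elicitor response 4 were measured. Of these 2 fell, WRKY22 and WRKY53, transcription factors of defence and senescence, with a list median of -0.58. Of all genes 2.4% fell (5.74% with the pairing in the model), and with 4 measured the count describes single genes. WRKY22 read 6.44 and 6.01 in light, 8.61 and 8.54 in the dark and 7.94 and 7.97 after reillumination. WRKY53 read 6.31 and 6.07 in the dark and 5.55 and 5.57 after reillumination. The falls were 1.53-fold and 1.55-fold (limma adjusted p = 0.032 and 0.0335), and each was lost in all 4 fits that lack an array (0.0786 to 0.19). In total RNA WRKY22 differed by -0.49 and WRKY53 by -0.06. The zinc-finger gene STZ read 8.65 and 9.06 in the dark and 8.48 and 8.68 after reillumination, overlapped, and was not called.

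AT3G44450 and AT3G52740, both in the list of light-response genes, stood far lower in the dark than in light. AT3G44450 read 8.59 and 8.88 in light, 4.70 and 5.09 in the dark, and 5.15 and 4.93 after reillumination. AT3G52740 read 6.70 and 6.80, then 4.84 and 4.60, then 4.59 and 4.96. In both, dark and reilluminated arrays overlapped, far below light, and neither was called (limma adjusted p = 0.785 and 0.896). HYH, a bZIP factor of light signalling, read 4.16 and 4.38 in the dark and 3.96 and 4.08 after reillumination and was not called. GI, the clock protein GIGANTEA, did move. It read 8.13 and 8.11 in light, 8.10 and 8.18 in the dark and 7.54 and 7.58 after reillumination. The reilluminated arrays alone were low, 1.49-fold under darkness (limma adjusted p = 0.0101), and the call was made without dark replicate 1 but not without the other arrays (0.0536 to 0.0796). Its total RNA differed by -0.02.

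In most other families few members were called or none, and shares near the 2.4% of all genes called lower (5.74% with the pairing in the model) are no result about a family. Of 27 expansins and xyloglucan enzymes EXPA8 fell, and 2 fell with the pairing. Of 8 autophagy genes ATG3, the conjugating enzyme of the pathway, fell, and 2 with the pairing, with a list median of -0.20. Of 7 tubulins TUA6 fell (list median -0.25). Of 47 UDP-glucosyltransferases UGT87A2 fell, while 1 rose and 8 fell with the pairing. Of 25 cytochrome P450 genes CYP71B29 fell, and 2 with the pairing. These falls were 1.35-fold to 1.53-fold (limma adjusted p = 0.00917 for CYP71B29 to 0.0411 for UGT87A2). CYP71B29 lost its call without dark replicate 2 (0.0808) and reilluminated replicate 2 (0.0661), and TUA6 kept it only without reilluminated replicate 1 (otherwise 0.0806 to 0.253). The other 3 lost it in each of the 4 fits (0.0534 to 0.223). No call was made for 22 genes of the tricarboxylic acid cycle and respiration, 20 plastid RNA editing and assembly factors, 12 RNA polymerase subunits, 27 membrane trafficking genes, 14 bZIP factors, 14 SWEET sugar transporters, 12 auxin-response genes, 7 calmodulin-like genes, 5 core histones or 4 mRNAs with conserved upstream open reading frames. With the pairing in the model 2 of the first, 1 of the second, 1 of the third, 3 of the fourth, 1 of the bZIP and 2 of the auxin-response genes were called. The SWEET and auxin-response genes were dim, with medians of 4.52 to 5.04 on the 6 polysomal arrays. In the bin by light level from 3.93 to 5.15, 0.353% of probe sets were called higher and 1.08% lower. A lack of calls there does not show that nothing moved.

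In 4 other families 1 or 2 members rose, which is 2.5% to 9.09% of each beside 4.85% of all genes (8.03% with the pairing in the model), so what follows describes the single genes. UBC28, a ubiquitin-conjugating enzyme, was the 1 of 33 ubiquitin genes called, with 2 that rose and 2 that fell under the pairing. It read 10.77 and 10.89 in the dark and 11.44 and 11.61 after reillumination. The rise was 1.62-fold (limma adjusted p = 0.00684), and the call was lost without dark replicate 1 (0.052) and reilluminated replicate 2 (0.0662). AGL26, a MADS-box factor, was the 1 of 40 in its list, with 3 called under the pairing. It read 8.01 and 7.84 in the dark and 8.61 and 8.87 after reillumination, a rise of 1.76-fold (limma adjusted p = 0.00307) that held with each array left out. TBL37 and TBL32, of a family that acetylates cell walls, were 2 of 22 and rose by 1.68-fold and 1.39-fold (limma adjusted p = 0.0248 and 0.0383), with 2 more that fell under the pairing. GSTU18 was the 1 of 13 glutathione transferases and rose by 1.4-fold (limma adjusted p = 0.0406), with 2 that fell under the pairing. The calls of TBL37, TBL32 and GSTU18 were lost in each of the 4 fits that lack an array (0.0513 to 0.244).

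The probe sets that rose and fell also differed in measures that did not enter the comparison. In the light controls, whose arrays entered the fit only through the shared spread, polysomal minus total RNA had a median of log2 0.17 among the 1051 that rose and of -0.43 among 699 that fell, with chloroplast-encoded transcripts left out. The median of all 22677 was 0.03. The difference was above 0 in 64.0%, 22.9% and 54.2% of them. The median polysomal level in light was 8.21, 7.55 and 6.07 in the same order. Calls were rare among dim probe sets, with 0.022% higher and 0.132% lower in the lowest of 5 equal bins by light level and 11.4% and 5.25% in the highest.

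Annotated gene length had a median of 1.97 kb among 651 probe sets that rose and 2.98 kb among 297 that fell, against 2.12 kb for all 13367 with a length. From the shortest to the longest of 5 equal bins of genes the share that fell went through 0.86%, 1.08%, 1.57%, 2.96% and 4.64%. The share that rose was 3.14%, 7.03%, 7.63%, 4.57% and 1.98%, highest in the middle. The median difference was 0.04 in the shortest bin and -0.06 in the longest, and in total RNA -0.01 and 0.06. In light the polysomal to total ratio also went down with length, from a median of 0.16 in the shortest bin to -0.20 in the longest. Length includes introns and is that of assembly TAIR10.1, and the part of level in this pattern was not tested.

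**Figure D4:**
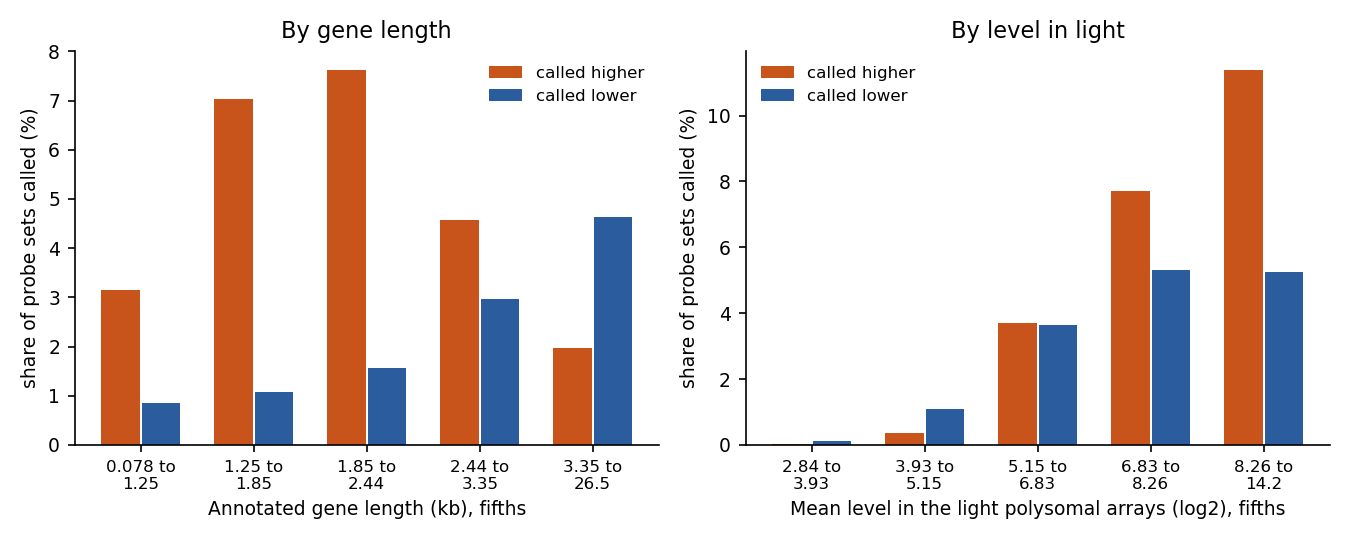
Share of probe sets called higher (orange) and lower (blue) after reillumination, as a percentage of the probe sets in each of 5 equal bins (y axis). Left, bins by annotated gene length in kb, in which the share that fell goes from 0.86% to 4.64%; right, bins by mean polysomal level in light (log2), in which the share that rose goes from 0.022% to 11.4%.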

How the data were processed

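RNA was hybridised to 12 Affymetrix ATH1 arrays. The submitters' processing notes name RMA and affy (versions not given in the sources used here). The authors deposited log2 values, 1 per probe set and array, each relative to its own array. A table of 22810 probe sets was read and 64 controls were set aside. The platform annotation ties 13513 probe sets (59.4%) to 1 gene, 503 to several, and does not list 8730. The gene table of assembly TAIR10.1 matched 13436 of the first and not 77. The build of the probe design is not given in the sources used here, and no positions are printed.

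For 6 groups, means were fitted in R 4.3.3 by limma 3.58.1, with variances moderated by empirical Bayes (6 residual and 5.48 prior degrees of freedom), so all groups share 1 spread. Tests were two-sided. The median standard error was 0.134, and 0.189 for the interaction, and precision is limited by how many arrays there are. Values after ± are standard errors of the fit. On simulated data at this size 34%, 84%, 96% and 98% of 50 changes each of log2 0.5, 1, 1.5 and 2 were recovered, with 7 false calls. The simulated noise was independent between arrays and held no replicate effect, and far fewer probe sets were changed than were called in the data. Replicate numbers pair the arrays: the deviations of replicate 1 from its group mean correlated at 0.29 to 0.509 over all 15 pairs of groups, and the labels name independent replicate experiments. Figures used Python 3.11.15 and matplotlib 3.10.9.

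Genes named are the 15 largest called rises and falls among nuclear genes, up to 4 called members of each list, a set of fixed genes, and, of the called interactions, the 5 largest in each direction. Members and lists were chosen with earlier results of these data known. Alternatives changed the block, the arrays fitted, scaling, dim probe sets, variance model and the arrays left out.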

Additional observations from a re-analysis of the deposited data

Results flagged for a closer look

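The change from darkness to reillumination differed between polysomal and total RNA for 193 probe sets that were higher in polysomal RNA and 33 that were lower, by the interaction term of the fit. Among named genes it was called for 25. Each value here is the log2 change in polysomal RNA minus that in total RNA, from 2 arrays a group. The counts of such calls moved with single arrays, as given above. Calls said above to hold with each array left out are those of the polysomal difference, not of this one.

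Of the largest rises, the value was 1.85 for AT3G62190, 1.73 for AT5G52960, 1.70 for AT3G14595, 1.62 for AT5G64180 and 1.47 for AT2G39000. It was 1.43 for both AT1G70900 and AT1G15350, 1.42 for AT5G50335, 1.37 for AT1G28150 and 1.30 for AT2G20725. It was 1.29 for both AT5G16110 and AT3G05810, 1.12 for AT5G05750 and 1.09 for AT5G05710. Of the genes in lists, it was 0.99 for LIL3:2 and 0.93 for CHLM, both of chlorophyll synthesis. For AT5G47700 of the cytosolic ribosome it was 0.91, for UBC28 it was 0.83 and for the translation factor gene AT5G19510 it was 0.70. Below 0, it was -1.19 for psbB and -0.96 for ycf4, both of the chloroplast. It was -0.99 for AT1G30600, -0.92 for AT1G72500, -0.87 for TRM15 and -0.82 for AT5G64030.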

How the results depend on the processing

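With the replicate block, 1750 probe sets were higher and 1680 lower, 12 were called in total RNA, 716 and 370 in the interaction, and 3409 between reillumination and light in polysomal RNA (2020 without it); beyond the values printed above, it changed no call of a named gene from dark to reillumination. A fit of the 4 arrays alone called 580 and 249, and of the 6 polysomal arrays 767 and 432; neither holds total RNA, so neither gives an interaction. With arrays centred on their medians 451 were lower, and 15 in the interaction. The brighter probe sets gave 322 and 94 in the interaction. The trend and robust variance model gave 53 lower in the interaction and 1 in total RNA. With 1 array left out, the counts were 325 to 631 higher and 94 to 309 lower, 0 to 5 in total RNA, 2 to 274 and 0 to 83 in the interaction, 2124 to 2760 between dark and light, and 988 to 1242 between reillumination and light. A lone array is then taken to vary like the other groups. The cause of these moves was not tested. Choosing a gene's probe set by the highest mean picked the same one for all 99 named genes. Of these, 94 were called and all 94 were called with the block. Over the alternatives other than leaving out 1 replicate, 636 values kept direction and side of the threshold and 46 lost the call, of which 21 and 14 in the fits of 4 and 6 arrays and 9 with arrays centred (HEMB1, ATG3, EXPA8, TUA6, UGT87A2, ndhC, rpoC1, clpP and AT2G44370). With 1 array left out, 223 kept both, 170 lost the call and 3 turned sign. These are AT3G52740, at -0.06 and -0.13 without dark and reilluminated replicate 2 (range -0.13 to 0.25), and AT3G44450, at -0.04 without dark replicate 1 (range -0.04 to 0.34), neither of which was called. List medians moved too with 1 array left out. They ran from 0.04 to 0.27 for the small subunit of the cytosolic ribosome and from 0.13 to 0.32 for the large one. For all chloroplast-encoded transcripts they ran from -0.77 to -0.53. On simulated data 34% of changes of log2 0.5 were recovered, and the number of arrays was not varied there.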

Other observations

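Of 1466 nuclear genes that carry a symbol in the files, list members included, 58 rose and 57 fell (3.96% and 3.89%, beside 4.85% and 2.4% of all genes). The genes that follow are in none of the lists above and were picked from these 115 after their values were seen, so they describe the calls and test nothing. Several that rose have roles in transcription and RNA processing. MED19A and MED6, subunits of the Mediator complex, read 6.32 and 6.49, and 6.33 and 5.93, in the dark, against 7.46 and 7.47, and 7.29 and 6.99, after reillumination. They rose by 2.09-fold and 2.01-fold (limma adjusted p = 0.00155 and 0.0116). LSM3B and LSM6B, Sm-like proteins of mRNA splicing and decay, rose by 1.88-fold and 1.72-fold (limma adjusted p = 0.00869 and 0.0117), and the histone chaperone ASF1B by 1.65-fold (limma adjusted p = 0.00527). Among metabolic enzymes, GLX2-5, a glyoxalase II, read 7.44 and 7.48 in the dark and 8.47 and 8.74 after reillumination, a rise of 2.21-fold (limma adjusted p = 0.000843). The allantoate amidohydrolase AAH rose by 1.84-fold and the cyanase CYN by 1.76-fold (limma adjusted p = 0.00267 and 0.0015). Of the thylakoid, the calcium-sensing protein CaS rose by 1.62-fold (limma adjusted p = 0.00362). The transcription factor bHLH121, known for its part in iron supply, rose by 1.78-fold (limma adjusted p = 0.00334). The calls of MED19A, GLX2-5, AAH, CYN, CaS and bHLH121 held with each array left out. That of MED6 was lost without reilluminated replicate 1 (0.0739) and dark replicate 2 (0.105). LSM3B lost it without dark replicate 1 (0.0614) and reilluminated replicate 2 (0.0554), and ASF1B without dark replicate 2 (0.0528). LSM6B was called only without dark replicate 1 (otherwise 0.054 to 0.103).

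Among the genes that fell were some known from defence and jasmonate synthesis. BIK1, a receptor-like cytoplasmic kinase of immune signalling, read 8.69 and 8.92 in the dark and 8.08 and 8.36 after reillumination, a fall of 1.5-fold (limma adjusted p = 0.0411). OPCL1, a ligase of jasmonate synthesis, went from 7.76 and 7.83 to 7.06 and 7.21, a fall of 1.58-fold (limma adjusted p = 0.00917), and the glucosinolate transporter GTR1 from 6.75 and 6.76 to 6.15 and 6.06, a fall of 1.57-fold (limma adjusted p = 0.0143). RAPTOR1, a partner of the TOR kinase that tunes growth and translation, read 7.33 and 7.29 against 6.88 and 6.93, a fall of 1.33-fold (limma adjusted p = 0.0276). The aminopeptidase APM1 fell by 1.7-fold (limma adjusted p = 0.00188). Its call was the only one of these 5 that held with each array left out. BIK1 and RAPTOR1 were called in none of those fits (0.0731 to 0.236, and 0.107 to 0.126). OPCL1 lost its call without reilluminated replicate 1 (0.0589) and dark replicate 2 (0.0723), and GTR1 was called only without reilluminated replicate 1 (otherwise 0.0686 to 0.102). In total RNA the same genes differed by -0.02 for BIK1, -0.36 for OPCL1, 0.02 for GTR1, 0.07 for RAPTOR1 and 0.04 for APM1.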
